A study of Mus musculus with 4 samples.

Results

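The alpha and mu glutathione S-transferases are 10 genes of the deposited liver tables: the 4 alpha genes Gsta1, Gsta2, Gsta3 and Gsta4, and the 6 mu genes Gstm1, Gstm2, Gstm3, Gstm4, Gstm6 and Gstm7. They were taken by gene symbol from 33639 genes. Averaged over the libraries, all 10 reached 1 CPM (counts per library total of 1000000), as did 11743 genes in all. The series profiled liver RNA of untreated, chow-fed male mice, with 1 library for each of 4 genotypes. The genotypes were wild type (WT), a global knockout (KO) of Cyp27a1, the mitochondrial sterol 27-hydroxylase, a global KO of the Cyp3a drug and sterol hydroxylases, and a double knockout (DKO) that lacks Cyp27a1 and Cyp3a together. The labels write the deleted Cyp3a gene as Cyp3a4, a human symbol, and give no age. The labels call the deletions global. The series text gives 1 mouse per group, so differences between genotypes and between single animals cannot be told apart.

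Glutathione S-transferases join the tripeptide glutathione to electrophiles, which are then exported from the cell and broken down to mercapturates. The alpha and mu enzymes are among the abundant soluble enzymes of hepatocytes and work as dimers within a class. Their genes are textbook targets of NRF2, a regulator that responds to electrophile and oxidant stress, and of the xenobiotic receptors PXR and CAR. The comparisons ask how the levels of these genes stand when Cyp27a1, the Cyp3a genes or both are missing.

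The 6 mu genes lie side by side on the minus strand of chromosome 3, over 118.6 kb (chr3:107926334-108044894, GRCm38, the mm10 build). Gsta1, Gsta2 and Gsta4 lie within 173.0 kb of chromosome 9 (chr9:78182774-78355788), and Gsta3 lies by itself on chromosome 1 (chr1:21240589-21265661). The first 60 coding bases of each gene show how much of the sequence members of a class share, which decides how well reads can be told apart. They are shown 5′ to 3′ from the GENCODE M21 transcripts. Capitals mark bases that differ from Gsta1 in the alpha class, to which the near-copy Gm3776 is added.
Gsta1: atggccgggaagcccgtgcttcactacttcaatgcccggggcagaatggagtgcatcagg
Gm3776: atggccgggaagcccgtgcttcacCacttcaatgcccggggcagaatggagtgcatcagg
Gsta2: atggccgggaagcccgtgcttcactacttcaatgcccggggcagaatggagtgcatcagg
Gsta3: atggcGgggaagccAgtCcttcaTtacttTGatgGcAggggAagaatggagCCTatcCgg
Gsta4: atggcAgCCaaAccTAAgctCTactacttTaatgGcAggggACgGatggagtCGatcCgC

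In the mu class, capitals mark bases that differ from Gstm1.
Gstm1: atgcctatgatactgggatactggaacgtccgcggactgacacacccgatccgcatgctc
Gstm2: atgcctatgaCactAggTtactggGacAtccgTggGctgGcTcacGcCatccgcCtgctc
Gstm3: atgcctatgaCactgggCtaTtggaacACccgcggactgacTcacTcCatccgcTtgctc
Gstm4: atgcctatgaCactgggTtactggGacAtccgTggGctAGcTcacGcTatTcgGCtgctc
Gstm6: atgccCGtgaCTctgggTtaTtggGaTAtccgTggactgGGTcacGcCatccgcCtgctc
Gstm7: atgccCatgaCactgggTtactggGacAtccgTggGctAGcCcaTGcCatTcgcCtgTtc

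Gsta1 and Gsta2 were identical over these 60 bases, Gm3776 differed from Gsta1 at 1 of them, Gsta3 at 13 and Gsta4 at 19. The mu genes differed from Gstm1 at 9 bases (Gstm3) to 16 bases (Gstm6 and Gstm7). Over the whole coding sequence, identity was 97.5% between Gsta1 and Gsta2, and 65.6% to 97.5% over the 6 pairs of alpha members. It was 71.7% to 84.9% over the 15 pairs of mu members and 47.8% to 51.2% between the classes, with gaps counted as differences. The longest annotated coding sequence was used, which for Gstm1 has 735 bases against 657 for Gstm2, Gstm3, Gstm4 and Gstm7. Values of Gstm1 pairs, 80% with Gstm3 among them, are lowered by this, so both ends of the mu range may be too low. Only 7.14% of the 31-base words of Gsta1 transcripts occur in no other annotated gene, and 80.3% occur in Gm3776. The unique share was 39.3% for Gsta2, 62.3% for Gstm3 and 71.2% for Gstm1. It was 87.8% to 100% for the other 6 members. Values of Gsta1 and Gsta2 as single genes are therefore uncertain, those of Gstm1 and Gstm3 less so, and class sums are given beside all of them.

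Totals were 49745860 to 50378101 counts per library. The targeted genes followed the labels: Cyp27a1 transcripts were at 746 CPM in WT and 727 CPM in Cyp3a-KO liver, against 57.6 CPM in Cyp27a1-KO liver and 65.3 CPM in the DKO. The Cyp3a genes summed to 9605 CPM in WT and 25248 CPM in Cyp27a1-KO liver, against 2.70 CPM in Cyp3a-KO liver and 13.2 CPM in the DKO. Hepatocyte markers summed to 98866 to 142750 CPM in every library. They were led by Alb, at 72499, 37953, 40344 and 65721 CPM in WT, Cyp27a1 KO, Cyp3a KO and DKO. With 1 library per genotype there is no replicate check and no p-value. Every statement compares these libraries, and the 3 comparisons with WT share the WT library. Intervals in parentheses are exact 95% intervals of a count ratio and cover counting error only. CPM was scaled between libraries with TMM factors, and a gene is said to be called where it differed at least 2-fold with an interval that excludes 1.

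Liver lacking Cyp27a1 had 7 of the 10 genes called higher than WT and 0 lower. The median log2 fold of the members was 1.73, and that of all measured genes was 0.00. Of all measured genes 2.44% were called higher and 1.36% lower. In Cyp3a-KO liver 6 of the 10 were called higher and 0 lower, with a median of 1.52 against 0.01, where 2.56% of measured genes were called higher and 1.86% lower. In the DKO 8 of the 10 were called higher and 0 lower, with a median of 2.34 against -0.01, where 6% of measured genes were called higher and 4.02% lower. All 10 members stood above WT in each knockout library on this scale. Deposited TPM (an abundance scaled by transcript length to a fixed total) shifts the median of all genes against WT by 0.18, 0.09 and 0.33 in the same order. On TPM the DKO had 1280 genes at least 2-fold higher and 268 lower, against 705 and 472 on scaled counts, and with library totals in place of TMM factors 975 and 356. The Cyp27a1 KO had 446 and 129 on TPM against 287 and 160 on scaled counts.

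As a class, the mu genes took up far more of the liver RNA in the knockouts. In whole liver, more cells of a kind and more RNA per cell cannot be told apart. The 6 genes summed to 1147 CPM in WT, 5533 CPM in Cyp27a1-KO liver, 4462 CPM in Cyp3a-KO liver and 15588 CPM in the DKO. The mu sum was 4.83-fold higher than WT (4.78 to 4.87) in Cyp27a1-KO liver, 3.89-fold higher (3.86 to 3.93) in Cyp3a-KO liver and 13.6-fold higher (13.5 to 13.7) in the DKO. The alpha genes summed to 1205, 1896, 1560 and 2119 CPM in the same 4 libraries. This sum was 1.57-fold, 1.29-fold and 1.76-fold above WT, below the 2-fold rule in each comparison. With the predicted alpha genes Gm3776 and Gm10639 added, which share reads with Gsta1 and Gsta2, it was 1.61-fold, 1.31-fold and 1.93-fold above WT. On deposited TPM the alpha sum of the DKO passed the rule, with a log2 fold of 1.29 against 0.81 on scaled counts. The median of all genes lay at 0.33 on that scale. With library totals the alpha sum was at 1.015. Both classes together made up 0.220% of all counts in WT and 1.91% in the DKO, and 0.740% and 0.599% in Cyp27a1-KO liver and Cyp3a-KO liver.

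**Figure D1:**
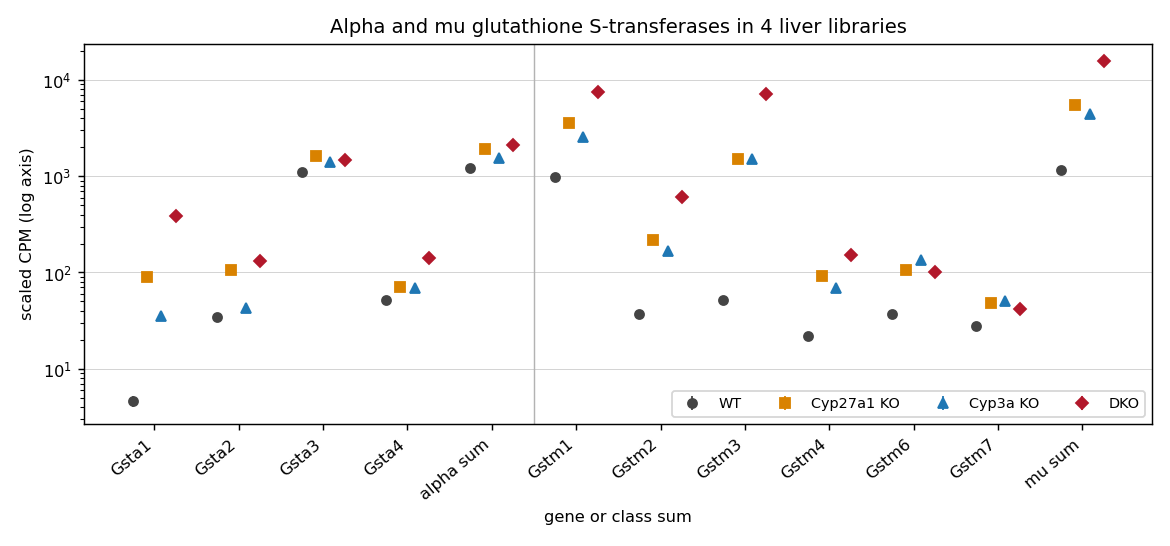
Level of each gene and class sum in the 4 libraries, in TMM-scaled CPM on a log axis, 1 point per library; exact Poisson 95% intervals are mostly smaller than the points. WT is the lowest point for every gene, and the DKO the highest for 7 of the 10.

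Among the alpha genes, Gsta1 had the widest range. This subunit is barely present in untreated mouse liver and is known for its induction by antioxidants. It stood at 4.61 CPM in WT, 90.0 CPM in Cyp27a1-KO liver, 35.2 CPM in Cyp3a-KO liver and 384 CPM in the DKO. These values lay 19.5-fold (17.0 to 22.5), 7.63-fold (6.62 to 8.83) and 83.2-fold (72.8 to 95.7) above WT. Gsta1 was the 4th highest fold of 11743 genes in Cyp27a1-KO liver, the 20th in Cyp3a-KO liver and the 10th in the DKO. Its near-copy Gm3776, a predicted gene that is no member, stood at 3.24, 51.0, 16.5 and 209 CPM in the same order. Both rows together were 75.5-fold higher than WT (68.1 to 83.9) in the DKO. Gsta1 summed with Gsta2, Gm3776 and Gm10639, the 4 rows that share most words, went from 42.7 CPM in WT to 734 CPM in the DKO, which is 17.2-fold (16.4 to 18.0). That sum was 5.83-fold (5.56 to 6.12) above WT in Cyp27a1-KO liver and 2.24-fold (2.13 to 2.36) in Cyp3a-KO liver. How far the fold of Gsta1 depends on the split of reads is thus not known, but the group as a whole was called higher in all 3 libraries.

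Gsta2, an alpha subunit whose coding sequence nearly equals that of Gsta1, had 34.5 CPM in WT and 43.0 CPM in Cyp3a-KO liver. It stood at 105 CPM in Cyp27a1-KO liver and 131 CPM in the DKO. The 2 libraries without Cyp27a1 were thus high, at 3.04-fold (2.87 to 3.21) and 3.80-fold (3.60 to 4.01) above WT, while Cyp3a-KO liver was 1.25-fold above it. Gsta4, the subunit that conjugates 4-hydroxynonenal and related products of lipid peroxidation, stood at 51.2, 71.3, 69.0 and 140.0 CPM in WT, Cyp27a1 KO, Cyp3a KO and DKO. Here the DKO alone passed the rule against WT, at 2.73-fold (2.61 to 2.86), and the singles were 1.39-fold and 1.35-fold above WT. Gsta3, the main alpha subunit of mouse liver and the one known to detoxify aflatoxin epoxide, stood at 1115, 1629, 1413 and 1464 CPM. It had the narrowest range of the 10, at most 1.46-fold above WT, and passed the rule in no comparison.

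The mu genes were led by Gstm1 and Gstm3. Gstm1, the main mu subunit of mouse liver, stood at 971 CPM in WT, 3559 CPM in Cyp27a1-KO liver, 2535 CPM in Cyp3a-KO liver and 7509 CPM in the DKO. It was 3.66-fold (3.63 to 3.70), 2.61-fold (2.58 to 2.64) and 7.73-fold (7.66 to 7.81) higher than WT in these libraries. Gstm3 stood at 51.3 CPM in WT, 1512 CPM in Cyp27a1-KO liver, 1504 CPM in Cyp3a-KO liver and 7182 CPM in the DKO. WT was low, the single knockouts were alike, and the DKO was far above both. The ratio of the single knockouts was 1.01 (0.995 to 1.02), so any difference between them was within counting error. Gstm3 was 29.5-fold (28.3 to 30.7), 29.3-fold (28.1 to 30.5) and 140.0-fold (134 to 146) above WT, the 2nd, 6th and 5th highest folds of all measured genes.

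Gstm2 and Gstm4, mu subunits of lower level, followed the order of Gstm1. Gstm2 stood at 37.0, 215, 168 and 602 CPM in WT, Cyp27a1 KO, Cyp3a KO and DKO, up to 16.3-fold (15.5 to 17.1) above WT. Gstm4 stood at 21.7, 91.4, 69.2 and 151 CPM, up to 6.98-fold (6.54 to 7.46) above WT. Both were called higher in all 3 comparisons with WT.

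Gstm6 and Gstm7 did not follow that order. Gstm6 stood at 37.3 CPM in WT, 107 CPM in Cyp27a1-KO liver, 136 CPM in Cyp3a-KO liver and 102 CPM in the DKO. It was called higher in all 3, at 2.86-fold (2.70 to 3.02), 3.66-fold (3.47 to 3.86) and 2.73-fold (2.58 to 2.88), with its highest value in Cyp3a-KO liver. Gstm7 stood at 28.0, 48.7, 50.5 and 42.0 CPM and was 1.50-fold to 1.80-fold above WT, below the rule. On deposited TPM its log2 folds were 1.14, 1.005 and 1.05 and passed the rule in all 3, where the median gene also lay above 0.

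**Figure D2:**
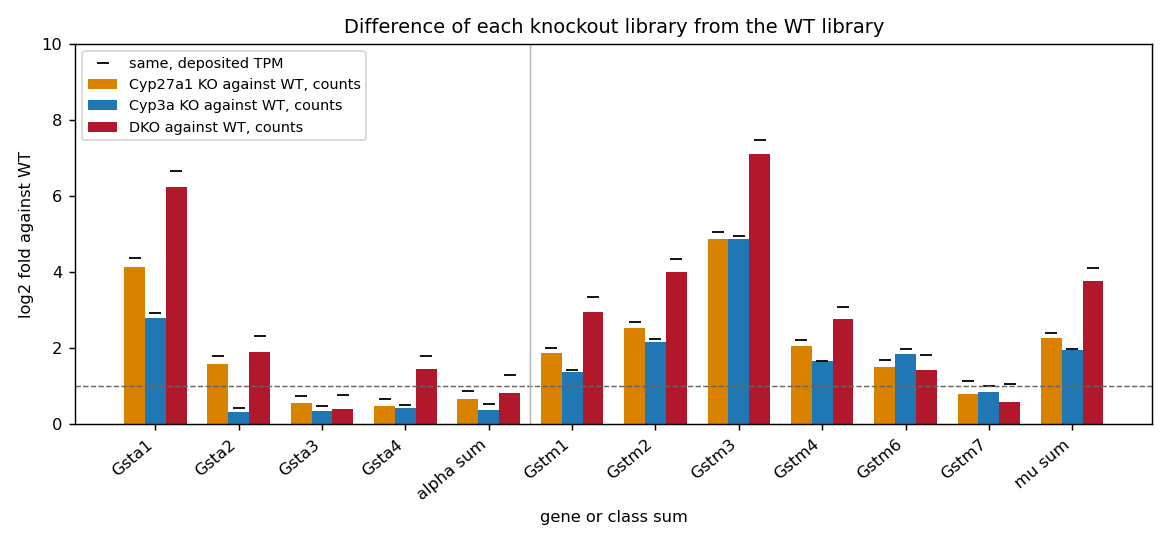
Log2 fold of each gene and class sum against WT (bars, scaled CPM plus 0.5; dashes, deposited TPM) in Cyp27a1-KO liver, Cyp3a-KO liver and the DKO, with the 2-fold rule as a dashed line. Gstm3 reaches 7.12 and Gsta1 6.23 in the DKO, while Gsta3 stays below the line in all 3 and every dash lies above the end of its bar.

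Levels of different genes can be compared on TPM, which accounts for length. In WT, Gsta3 at 1425 TPM and Gstm1 at 1070 TPM stood above the other 8 members, which lay between 7.74 TPM (Gsta1) and 74.8 TPM (Gsta4). In the DKO the order was Gstm1 at 10829 TPM, Gstm3 at 9408 TPM, Gsta3 at 2437 TPM, Gstm2 at 1036 TPM and Gsta1 at 827 TPM. Gstm3 thus went from the level of a minor gene in WT to nearly that of Gstm1 in the DKO.

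The make-up of both classes differed between libraries. Of the mu counts Gstm1 supplied 84.7% in WT, 64.3% in Cyp27a1-KO liver, 56.8% in Cyp3a-KO liver and 48.2% in the DKO. Gstm3 supplied 4.47%, 27.3%, 33.7% and 46.1% in the same order. Of the alpha counts Gsta3 supplied 92.5%, 86.0%, 90.6% and 69.1%, and Gsta1 0.383%, 4.75%, 2.26% and 18.1%. On TPM the same shares in the DKO were 43.4% for Gstm3, 63.6% for Gsta3 and 21.6% for Gsta1. Without Gsta3, the other 3 alpha genes summed to 90.3 CPM in WT and 655 CPM in the DKO.

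**Figure D3:**
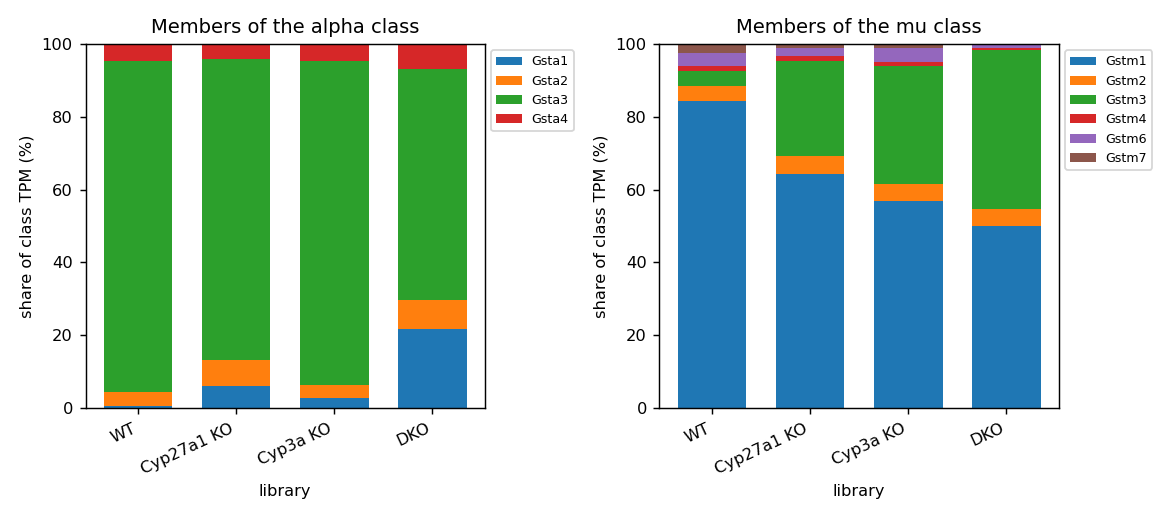
Share of each gene in the summed TPM of its class, in percent, for the 4 libraries (left, alpha; right, mu). The Gstm3 share is 4.13% in WT and 43.4% in the DKO, and the Gsta1 share is largest in the DKO.

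The DKO was then set against each single knockout. Against Cyp27a1-KO liver, 4 of the 10 were called higher and 0 lower (Gsta1, Gstm1, Gstm2 and Gstm3), where 2.84% of measured genes were called higher and 2.59% lower. Gstm3 was 4.75-fold (4.71 to 4.79) and Gsta1 4.26-fold (4.13 to 4.41) higher. Gsta4 was at 1.96-fold (1.89 to 2.04), just under the rule, and passed it with library totals at a log2 fold of 1.08. Against Cyp3a-KO liver, 7 of the 10 were called higher and 0 lower, where 4.02% of measured genes were called higher and 2.7% lower. Gsta1 was 10.9-fold (10.4 to 11.5), Gstm3 4.78-fold (4.74 to 4.81) and Gsta2 3.05-fold (2.91 to 3.20) higher. Gsta4 was at 2.03-fold (1.95 to 2.11), just inside the rule. The mu sum of the DKO was 2.82-fold (2.81 to 2.83) that of Cyp27a1-KO liver and 3.49-fold (3.48 to 3.51) that of Cyp3a-KO liver, and the alpha sum 1.12-fold and 1.36-fold. On TPM the median of all genes was 0.16 and 0.24 in these comparisons, with 470 genes higher and 247 lower against Cyp27a1-KO liver (333 and 304 on scaled counts) and 736 and 211 against Cyp3a-KO liver (472 and 317).

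Gsta3, Gstm6 and Gstm7 went the other way or hardly moved in these comparisons. Gstm6 in the DKO had a log2 fold of -0.42 against Cyp3a-KO liver and -0.07 against Cyp27a1-KO liver, the latter 0.05 with library totals and 0.15 on TPM. Gstm7 had -0.27 and -0.21, of which the first was 0.05 on TPM. Gsta3 had 0.05 against Cyp3a-KO liver and -0.15 against Cyp27a1-KO liver, which was 0.04 on TPM.

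For most members the DKO fold was smaller than the product of the single folds. The departure from additivity is the log2 fold of the DKO minus the sum of both single log2 folds. It was -2.61 (-2.67 to -2.55) for Gstm3, where the singles summed to 9.73 and the DKO reached 7.12. It was -1.92 (-2.02 to -1.83) for Gstm6, -1.05 for Gstm7, -0.93 for Gstm4, -0.72 (-0.93 to -0.51) for Gsta1, -0.68 for Gstm2, -0.50 for Gsta3 and -0.31 for Gstm1. On deposited TPM the value of Gstm1 was -0.07. Gsta2, at 0.01 (-0.10 to 0.12), could not be told from 0 by counting error. Of the single members Gsta4 alone lay above 0 beyond its interval, at 0.54 (0.45 to 0.63). The Gsta1 and Gsta2 values are uncertain, since reads of these near-identical genes may be split between them, and the sum of Gsta1, Gsta2, Gm3776 and Gm10639 had the opposite sign to Gsta1, at 0.40 (0.32 to 0.48). The alpha sum was -0.21 with Gsta3 and 0.60 (0.53 to 0.66) without it. With Gm3776 and Gm10639 added to all alpha members it was -0.12 (-0.14 to -0.10), and -0.004 on TPM. Over all measured genes the median was -0.02, with 5% to 95% of genes between -0.84 and 0.84. Gstm3, Gstm6, Gstm7 and Gstm4 lay below that range and the other 6 members within it.

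Folds differed along the chromosome 3 cluster. From the low to the high coordinate the mu genes run Gstm7, Gstm6, Gstm3, Gstm2, Gstm1 and Gstm4, and Gstm5, a mu gene that is no member, lies beyond Gstm7 on the plus strand. Their DKO log2 folds were 0.57, 1.44, 7.12, 4.01, 2.95 and 2.78, after 0.27 for Gstm5. Gstm5 stood at 5.75, 6.63, 6.21 and 7.01 CPM in WT, Cyp27a1 KO, Cyp3a KO and DKO. Of 6 other measured protein-coding genes within 200 kb of the cluster, 0 were called higher in any comparison with WT. Amigo1 was called lower in Cyp27a1-KO liver and the DKO, at log2 folds of -1.33 and -1.80. Around the alpha cluster on chromosome 9, 0 of 6 such neighbours were called in either direction. That count leaves out Gm3776 and Gm10639, which lie within the cluster. Gm3776 was called higher in every comparison with WT, and Gm10639 in Cyp27a1-KO liver and the DKO.

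**Figure D4:**
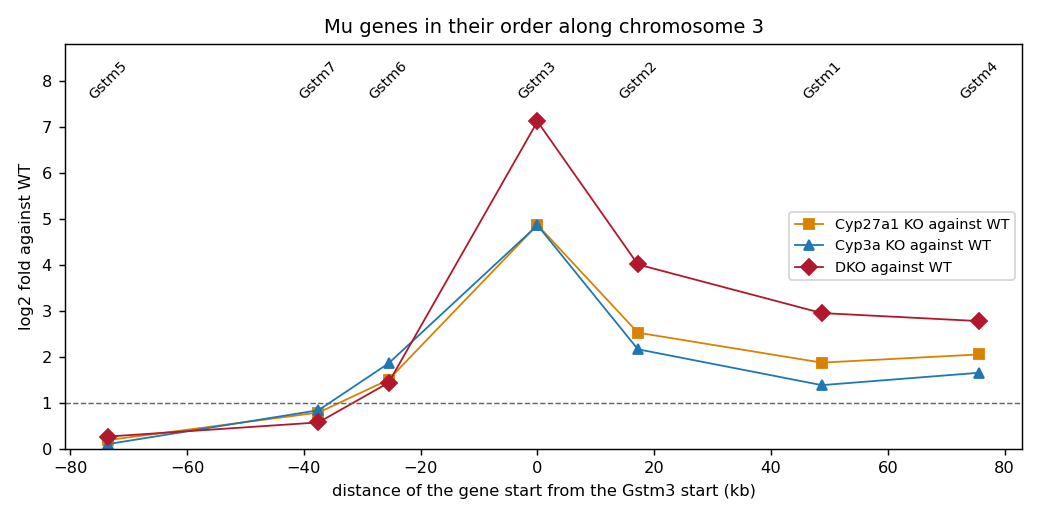
Log2 fold against WT of the 7 mu genes of chromosome 3, including Gstm5, against the distance of the gene start from the Gstm3 start in kb; 1 line per knockout library and the 2-fold rule dashed. Folds peak at Gstm3 in all 3 libraries and are lowest at Gstm5.

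Promoter letters were compared because NRF2 and the aryl hydrocarbon receptor (AhR) have short core motifs. RefSeq windows of 250 bases before to 50 after the start (GRCm38.p6) were given for 9 of the 10 genes, 14 windows in all. TGACNNNGC, the core of the antioxidant response element, was found on either strand in 2 of 14 windows (14.3%), one each of Gsta3 and Gstm7, against 12.4% of 32851 promoters. GCGTG, the AhR core, was found in 4 of 14 (28.6%), those of Gsta1 and Gsta2 and both of Gstm1, against 32.4%. The Gstm1 windows overlap and hold the same site, so 3 of the 9 genes had this motif. The motifs overlap in no letter of the windows shown. The windows of Gsta1 (chr9:78230419-78230688, plus strand) and Gsta2 (chr9:78347126-78347395, minus strand) are shown for the pair with near-equal coding sequence. Those of Gsta3 (chr1:21240335-21240604, plus strand) and Gstm3 (chr3:107969155-107969424, minus strand) are shown for the genes with the smallest and the largest range. Each holds the 250 bases before the RefSeq start and the first 20 after it, 5′ to 3′ along the gene, with a motif in capitals.
Gsta1: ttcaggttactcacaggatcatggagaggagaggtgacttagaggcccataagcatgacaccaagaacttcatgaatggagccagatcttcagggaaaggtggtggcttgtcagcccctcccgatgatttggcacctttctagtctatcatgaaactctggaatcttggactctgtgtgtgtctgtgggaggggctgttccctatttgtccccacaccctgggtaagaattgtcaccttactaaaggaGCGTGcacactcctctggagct
Gsta2: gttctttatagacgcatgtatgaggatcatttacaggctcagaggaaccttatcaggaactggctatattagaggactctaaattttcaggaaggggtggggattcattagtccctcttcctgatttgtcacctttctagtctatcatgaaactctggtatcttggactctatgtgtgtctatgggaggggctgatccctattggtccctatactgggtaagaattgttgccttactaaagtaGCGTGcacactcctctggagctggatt
Gsta3: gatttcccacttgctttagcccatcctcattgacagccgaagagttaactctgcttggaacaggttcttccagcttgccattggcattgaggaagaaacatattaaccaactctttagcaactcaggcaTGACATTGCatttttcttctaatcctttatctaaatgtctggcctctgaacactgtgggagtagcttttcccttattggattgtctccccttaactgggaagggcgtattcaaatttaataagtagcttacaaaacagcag
Gstm3: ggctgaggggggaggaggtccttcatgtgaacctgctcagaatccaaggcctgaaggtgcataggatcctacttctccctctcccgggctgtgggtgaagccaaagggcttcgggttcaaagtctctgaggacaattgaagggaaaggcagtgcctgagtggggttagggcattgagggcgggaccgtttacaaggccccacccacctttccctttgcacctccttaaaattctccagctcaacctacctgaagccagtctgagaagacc

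In Gsta1 the GCGTG begins 2 bases before the start and in Gsta2 7 bases before it, while the TGACNNNGC match of Gsta3 begins 121 bases before it. The window of Gstm3 holds neither motif. Promoters of Gsta1 and Gsta2 were 74.6% identical over the window, against 97.5% for the coding sequences, and those of the mu genes 42.9% to 47.6%. These are descriptions of the letters and say nothing about binding.

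The theta sum shared the order of the mu sum and the pi sum did not. The 4 theta genes summed to 290 CPM in WT, 316 CPM in Cyp3a-KO liver, 373 CPM in Cyp27a1-KO liver and 630 CPM in the DKO, 2.17-fold (2.13 to 2.22) above WT. Gstt3 had that order, at 57.7, 92.9, 117 and 310 CPM in the same libraries. Gstt2 did not, at 31.55 CPM in WT, 43.2 CPM in Cyp3a-KO liver, 32.6 CPM in Cyp27a1-KO liver and 55.1 CPM in the DKO. The pi genes, summed over Gstp1, Gstp2 and Gstp3, ran in the opposite order, at 2448 CPM in WT, 1738 CPM in Cyp3a-KO liver, 1018 CPM in Cyp27a1-KO liver and 335 CPM in the DKO. Their sum in the DKO was 7.30-fold (7.19 to 7.42) lower than in WT, and 2.41-fold (2.38 to 2.43) lower in Cyp27a1-KO liver. Gstp1, the main pi subunit, stood at 2374, 982, 1685 and 320 CPM in WT, Cyp27a1 KO, Cyp3a KO and DKO. Of 25 genes in 9 classes summed on TPM, the mu members held 9.36% in WT and 61.3% in the DKO, the pi genes 36.8% and 2.48%, and the alpha members 11.6% and 10.8%. Of 10 measured soluble transferases outside alpha and mu, 1 was called higher in the DKO, Gstt3, a theta subunit (57.7 and 310 CPM in WT and DKO), and 2 were lower, Gstp1 and Gstp2. The microsomal transferase Mgst1 stood at 2117, 3564, 3324 and 2396 CPM and was not called. Mgst3, the other measured microsomal transferase, stood at 5.28, 10.8, 4.03 and 17.1 CPM and was called higher in the DKO, at 3.23-fold (2.81 to 3.74).

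Gstp1 is known as a male-biased gene of mouse liver, and sex-biased genes moved with it. 10 of 13 male-biased genes, a list chosen with their values known (Mup7 and Elovl3 among them), were called lower in the DKO and 0 higher. They summed to 57980 CPM in WT, 17801 CPM in Cyp27a1-KO liver, 39881 CPM in Cyp3a-KO liver and 2768 CPM in the DKO. A list of 9 female-biased genes was chosen the same way. It summed to 3.83 to 5.62 CPM in the other 3 libraries and to 885 CPM in the DKO. In the DKO 4 of its 5 measured members, Cyp2b9 among them, were called higher than in WT and 0 lower. A gene counts as measured by its 4-library mean, which includes the DKO. Cyp2b9, below 1 CPM in each other library, passed through its DKO value. The count of 4 of 5 therefore cannot tell how common higher values were on the list, and no conclusion is drawn from it. Sult2a1 at 728 CPM and Cyp2b9 at 93.2 CPM made up most of that DKO sum. Both are also among the PXR and CAR targets counted below. The 4 Y-linked genes summed to 96.9 to 125 CPM in every library, as the male label requires. The part of these genes in the alpha, mu or pi values was not tested.

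**Figure D5:**
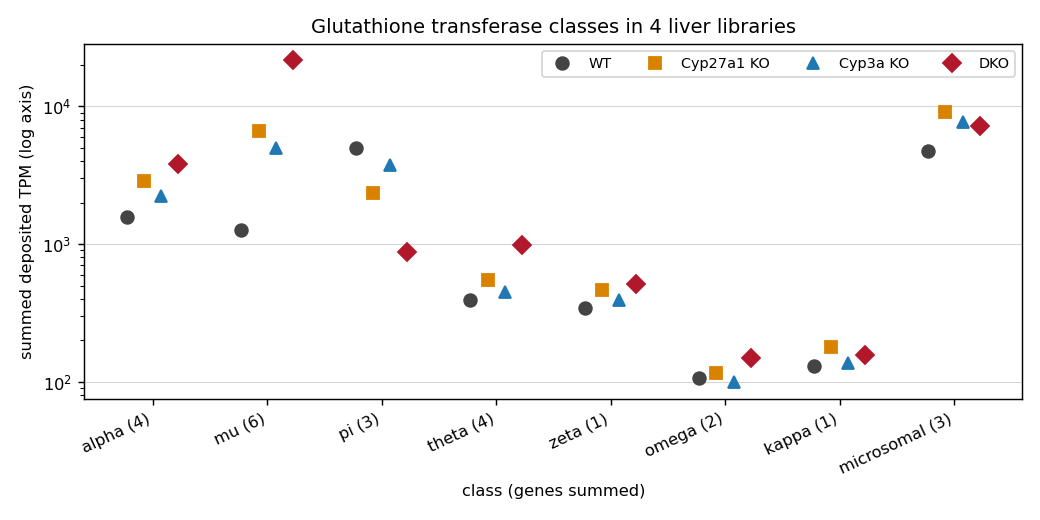
Summed deposited TPM of 8 glutathione transferase classes (number of genes in brackets) in the 4 libraries, on a log axis; the sigma class, below 1 TPM in each library, is not drawn. The mu class runs from 1267 TPM in WT to 21659 TPM in the DKO and the pi class from 4976 to 875 TPM.

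Genes that make or recycle glutathione mostly stayed within 2-fold of WT. Of 11 measured, 0 were called higher and 0 lower in Cyp27a1-KO liver, 0 and 1 in Cyp3a-KO liver, and 1 and 1 in the DKO. The 1 higher was Pgd, which supplies NADPH (21.1 and 54.5 CPM in WT and DKO), and the 1 lower was Chac1, which breaks glutathione down (6.48 and 2.71 CPM). Gsr, the glutathione reductase, stood at 48.7, 86.9, 84.8 and 97.7 CPM, and its log2 fold of 0.996 in the DKO fell just short of the rule. With library totals 3 of the 11 were called higher in the DKO and 1 in Cyp27a1-KO liver, on TPM 3 in each, and under both 0 were called lower in Cyp3a-KO liver or the DKO. Of 9 exporters of conjugates or drugs, 2, 2 and 3 were called higher in the 3 libraries and 0 lower. Abcc3 was called in all 3, Abcc4 in Cyp27a1-KO liver and the DKO, and Abcb1a in Cyp3a-KO liver and the DKO. Abcb1a, a drug exporter, stood at 2.75, 3.37, 7.19 and 23.7 CPM in WT, Cyp27a1 KO, Cyp3a KO and DKO. On TPM its log2 fold in Cyp3a-KO liver was 0.78, below the rule. Abcc3, a basolateral exporter, stood at 211, 624, 741 and 827 CPM. Abcc4, another basolateral exporter, stood at 3.24 and 3.40 CPM in WT and Cyp3a-KO liver and at 22.7 and 20.7 CPM in Cyp27a1-KO liver and the DKO, high in the same libraries as Gsta2. Of 8 genes of the mercapturate pathway, 1 was called higher in Cyp27a1-KO liver, Nat8, the N-acetyltransferase of cysteine conjugates (log2 fold 1.03, and -0.09 in the DKO), and another in the DKO, Anpep, an aminopeptidase (1.20, and 0.45 in Cyp27a1-KO liver). Dpep1, a dipeptidase, was called lower in both (2.08 CPM in WT, 0.763 and 0.701 CPM), and 0 genes of the pathway were called lower in either with library totals or on TPM.

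Of 16 measured NRF2 targets other than transferases, 4, 1 and 7 were called higher and 0, 1 and 0 lower in Cyp27a1-KO liver, Cyp3a-KO liver and the DKO. Their median log2 folds were 0.70, 0.22 and 0.88. Over all measured genes 2.44%, 2.56% and 6% were called higher and 1.36%, 1.86% and 4.02% lower. This list and the PXR and CAR list below were chosen with earlier results of these data known. The NRF2 list shares Abcc4 with the exporters and Nqo1 with the AhR targets. On TPM 8 of the NRF2 targets were called higher in Cyp27a1-KO liver and 2 in Cyp3a-KO liver, and a 4-fold rule left 1, 0 and 2 in the 3 libraries. Nqo1, a quinone reductase, stood at 2.32, 9.78, 3.34 and 10.3 CPM, and Ugdh, which makes UDP-glucuronate, at 110, 329, 243 and 657 CPM. Of 24 measured PXR and CAR targets other than transferases, 13, 11 and 18 were called higher and 1, 4 and 3 lower, with medians of 1.02, 0.87 and 2.08. That list holds Cyp3a11 and Cyp3a25, which the Cyp3a deletion removes. It also holds Sult2a1 and Cyp2b9, which are on the female-biased list too.

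Transcripts of most regulators stayed within 2-fold of WT. Of 16 measured, Ahr was called higher in Cyp27a1-KO liver and the DKO (22.1, 45.7, 39.4 and 70.4 CPM in WT, Cyp27a1 KO, Cyp3a KO and DKO), and Maff, a small MAF partner of NRF2, in Cyp3a-KO liver (5.25 and 14.5 CPM). Nfe2l2, which encodes NRF2, stood at 33.8, 43.7, 44.9 and 49.6 CPM. Nr1i2 (PXR) stood at 85.1 to 103 CPM and Nr1i3 (CAR) at 92.2 to 116 CPM. Of 5 measured AhR targets, 1 was called higher in Cyp27a1-KO liver and the DKO, which was Nqo1, while Cyp1a1 stood at 0.863 to 1.78 CPM.

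Genes whose 3 log2 folds against WT lay nearest to those of a member were found by Euclidean distance over 8661 genes with a mean of at least 5 CPM, passing over predicted genes (Gm followed by digits, or ending in Rik). Nearest to Gstm3 were Cyp2c55, a xenobiotic-inducible P450, at a distance of 0.83 (9.37, 243, 455 and 1016 CPM in WT, Cyp27a1 KO, Cyp3a KO and DKO), and Sult2a7, a sulfotransferase, at 1.30. The next of these genes was at 3.46. Nearest to Gstm1 and to Gstm4 was Fdps, an enzyme of cholesterol synthesis, at 0.32 and 0.27 (138, 474, 431 and 951 CPM). Nearest to Gsta2 were Myc at 0.14, Thrsp at 0.20 and Nqo1 at 0.31, and nearest to Gstm6 was Junb at 0.21. Nearest to Gsta1 was Atp6v0d2 at 1.64. The predicted gene Gm3776, passed over here and near-identical to Gsta1, had log2 folds of 3.78, 2.18 and 5.81 against WT in Cyp27a1-KO liver, Cyp3a-KO liver and the DKO, beside 4.15, 2.80 and 6.23 for Gsta1.

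Markers of other liver cells were set beside these values. Of 12 Kupffer cell markers 2 were called higher in the DKO than in WT, Adgre1 and Cd5l, and 1 lower in Cyp3a-KO liver, Marco, with sums of 353, 376, 238 and 543 CPM. In the DKO 7 of the 12 were called higher than in Cyp3a-KO liver (median log2 fold 1.16) and 3 higher than in Cyp27a1-KO liver (0.63), with 0 lower in either. Of 5 erythroid genes, 4 were called lower than WT in Cyp3a-KO liver (median -1.50) and 4 in the DKO (-1.16), with sums of 608, 448, 286 and 280 CPM. With library totals 2 of them were called lower in the DKO, and on TPM 1. Endothelial markers summed to 312 to 400 CPM, with Lyve1 called lower in Cyp3a-KO liver than in WT. Stellate cell markers summed to 177 to 240 CPM. Of these, Acta2 was called higher in both single knockouts, at low levels (0.558, 1.65 and 1.90 CPM in WT, Cyp27a1 KO and Cyp3a KO). Cholangiocyte markers summed to 31.7 to 44.1 CPM. Of these, Sox9 was called lower in Cyp27a1-KO liver and the DKO than in WT, but on TPM its log2 folds were -0.80 and -0.79. Markers of T and NK cells and of B cells had 0 measured members. Among 14 hepatocyte markers 0 were called higher than WT in any library, and 1 was called lower, Ttr in the DKO (4129 and 1831 CPM in WT and DKO). On TPM the log2 fold of Ttr was -0.81. Of 16 pericentral hepatocyte genes 2, 1 and 2 were called higher and 0, 0 and 1 lower. Of 15 periportal genes 1, 0 and 1 were called higher and 2, 1 and 2 lower. The part of cell make-up in the transferase values was not tested.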

How the data were processed

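Liver RNA of male mice was sequenced as 1 TruSeq library per genotype, and groups follow the genotype and title labels. The deposited tables hold the authors' estimated counts per gene, of which 57.7% were whole and the rest were rounded here, and their TPM. Per the submitters' processing notes, mm10, kallisto 0.43.1, HISAT2 2.0.5 and Trimmomatic 0.33 were used, in roles the notes leave out, and how reads shared by near-identical genes were split is not given in the sources used here. Columns of the 2 tables were matched by name, and 1 row that names no gene (0 counts) was left out.

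Counts were scaled to CPM with TMM factors (edgeR 4.0.16, R 4.3.3) of 0.937 (WT), 0.996 (Cyp27a1 KO), 0.994 (Cyp3a KO) and 1.08 (DKO). Log2 folds are of CPM plus 0.5, and fold ratios are of CPM without it. A gene was called where its log2 fold was at least 1 in size, the 4-library mean at least 1 CPM, and the exact 95% interval of its count ratio (Clopper-Pearson, conditional binomial) excluded 1. As PCR copies were not marked, reads are not independent molecules and intervals cover counting error only. No test across replicates was possible. The rule was run on simulated Poisson counts with known folds, scaled by library totals. These hold no differences between animals, so the run bears on counting error only.

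Coordinates, transcripts and shared 31-base words come from GENCODE M21 (GRCm38), and promoters from RefSeq (GRCm38.p6). All members are named, at most 4 genes of each other list with the largest folds, all regulators, and the nearest genes by distance. The genes around the clusters, the sex-biased genes, the sums by class outside alpha and mu and the summed Gsta1 rows were added after values were seen. The members and lists were chosen with earlier results of these data known. Alternatives were library totals, median-of-ratios scaling (DESeq2 1.42.0), deposited TPM with and without recentring, other filters, pseudocounts of 0.1 and 2, and a 4-fold rule.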

Additional observations from a re-analysis of the deposited data

Results flagged for a closer look

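In 3 of the 10 genes, loss of 1 of the deleted genes went with a higher value on the WT background and a lower value on the background of the other deletion, in single libraries and without a test of the difference. For loss of Cyp3a, the log2 fold of Gsta3 was 0.34 in the Cyp3a KO against WT and -0.15 in the DKO against the Cyp27a1 KO. Gstm6 had 1.86 and -0.066 in the same pairs, and Gstm7 0.84 and -0.21. For loss of Cyp27a1, Gstm6 had 1.50 in the Cyp27a1 KO against WT and -0.42 in the DKO against the Cyp3a KO, and Gstm7 had 0.79 and -0.27. On deposited TPM the second value was 0.04 for Gsta3 and 0.15 for Gstm6 after loss of Cyp3a, and 0.05 for Gstm7 after loss of Cyp27a1, so the opposite sign was kept there by Gstm7 for Cyp3a (-0.09) and by Gstm6 for Cyp27a1 (-0.15). With library totals the second value of Gstm6 after loss of Cyp3a was 0.05. None of these second values reached 2-fold.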

How the results depend on the processing

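The counts of members called higher against WT and between knockouts were within 1.5 times the main count under library totals, median-of-ratios scaling, deposited and recentred TPM, both pseudocounts, both filters and no interval. A 4-fold rule left 4 members in Cyp27a1-KO liver, 3 in Cyp3a-KO liver and 5 in the DKO against WT, and 2 in the DKO against either single knockout. Of all 11743 measured genes it left 65, 51 and 197 higher against WT in the same order. In the DKO it left 91 genes higher against Cyp27a1-KO liver and 108 against Cyp3a-KO liver. It also left out the mu sum in Cyp3a-KO liver against WT (log2 fold 1.96) and in the DKO against Cyp27a1-KO liver (1.49) and Cyp3a-KO liver (1.80). The alpha sum of the DKO against WT passed the 2-fold rule with library totals (1.015) and on TPM (1.29). Without Gsta3 the alpha sum passed it in Cyp27a1-KO liver (1.55) and the DKO (2.85) against WT, and in the DKO against Cyp27a1-KO liver (1.30) and Cyp3a-KO liver (2.15). The departure from additivity of the alpha sum was -0.21, and -0.18 with library totals, -0.11 on TPM and -0.17 on recentred TPM. That of the mu sum was -0.47, and -0.44, -0.28 and -0.35 in the same order. For Gstm1 it was -0.31, and -0.07 on TPM, and for both classes summed -0.10, and 0.06 on TPM. Of the departures recomputed for members and class sums under other scalings, 32 stayed within the main interval and 16 did not. The causes of these shifts were not tested, beyond fewer genes passing a stricter rule and fewer genes summed. Of the recomputed counts over the other gene lists, many of them small, 1888 stayed within 1.5 times the main count and 212 did not. Of single members, Gstm7 and Gsta4 crossed the 2-fold rule as given above, and Gsta4 in the DKO against Cyp3a-KO liver fell just short of it with a pseudocount of 2. No paired analysis was possible because each genotype has 1 library. For the same reason no replicate could be left out, and depth limits none of the member values, the lowest being 215 counts for Gsta1 in WT.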
